A study of Mus musculus with 24 samples.

Results

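Fatty acid synthesis and mitochondrial beta-oxidation genes were followed in pancreatic stellate cells (PSC), the lipid-storing resident cells of the pancreas that can turn into cancer-associated fibroblasts. The set held 45 genes of the 53801 in the deposited table, taken by symbol from a fixed list, and they were read in 3 classes. The synthesis class had 9 genes, the desaturation and elongation class 11, and the beta-oxidation class 25. PSC came from wild-type C57BL/6J mice aged 7 to 10 weeks, whose pancreata were pooled for each isolation, and no PSC carried an engineered allele. KPC cells are 1 line of murine pancreatic cancer cells, derived from a genetically engineered p48-Cre mouse whose alleles include mutant Trp53 (R172H). In standard co-culture KPC cells grew on the bottom of the well and PSC on an insert above them, which the labels call distant paracrine. In inverse co-culture both cell types shared 1 membrane with 1 µm pores, PSC on top and KPC cells underneath, which the labels call close paracrine. Each model had mono-cultured control PSC of its own, and both were harvested at 24 h and 72 h, giving 8 groups of 3 libraries. Libraries were made from 450 ng of RNA in the standard model and 120 ng in the inverse model, and KPC cells were in place before PSC in the inverse model. Standard PSC and their controls were seeded in a low-glucose medium that was replaced when co-culture began. Inverse PSC and their controls were in the replacement medium from seeding. Model, RNA input, length of coexistence and medium history therefore cannot be told apart.

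Fatty acid synthesis runs in the cytosol. Citrate leaves the mitochondrion through the carrier encoded by Slc25a1, ATP citrate lyase (Acly) or acetyl-CoA synthetase (Acss2) supplies acetyl-CoA, acetyl-CoA carboxylase (Acaca) forms malonyl-CoA, malic enzyme (Me1) provides NADPH and fatty acid synthase (Fasn) builds palmitate. Elongases (Elovl) and desaturases (Scd, Fads) then lengthen the chain and add double bonds. Beta-oxidation is the reverse supply line: carnitine palmitoyltransferases (Cpt1a, Cpt2) and the carrier Slc25a20 bring acyl groups into the mitochondrion, acyl-CoA dehydrogenases, the trifunctional protein (Hadha, Hadhb) and thiolases shorten them, and electrons leave through Etfa, Etfb and Etfdh. Quiescent stellate cells are known for their lipid droplets, which are lost on activation.

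The start regions of some called genes are shown first, as a description. RefSeq promoters of build GRCm38.p6 were found for 35 of the 45 genes. Of these 35, 17 had windows that held no annotated exon, and the choice was made among those of the 17 called in inverse co-culture. The 250 bases before the start site are printed for the 2 synthesis and the 2 beta-oxidation genes of this choice with the largest change at 72 h. Fads3 is printed for its call at 24 h. Scd1, which changed more at 24 h, had no promoter entry. Mlxipl has 2 RefSeq start sites. Capitals mark CCAAT, the GC box letters GGGCGG, the nuclear receptor half-site letters AGGTCA, the E-box letters CACGTG and the sterol response element letters TCACNCCAC, searched on both strands.
Mlxipl start 1, chr5:135089640-135089889, plus strand: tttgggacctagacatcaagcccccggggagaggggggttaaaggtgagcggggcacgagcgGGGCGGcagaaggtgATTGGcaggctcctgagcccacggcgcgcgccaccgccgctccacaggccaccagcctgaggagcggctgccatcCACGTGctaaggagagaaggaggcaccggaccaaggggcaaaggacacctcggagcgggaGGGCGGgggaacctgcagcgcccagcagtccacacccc
Mlxipl start 2, chr5:135106641-135106890, plus strand: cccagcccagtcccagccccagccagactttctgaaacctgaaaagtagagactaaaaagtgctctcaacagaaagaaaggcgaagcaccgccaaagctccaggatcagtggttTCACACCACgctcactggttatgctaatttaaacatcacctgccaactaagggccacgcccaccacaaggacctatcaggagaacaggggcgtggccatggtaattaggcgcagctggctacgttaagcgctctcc
Fasn, chr11:120824548-120824797, minus strand: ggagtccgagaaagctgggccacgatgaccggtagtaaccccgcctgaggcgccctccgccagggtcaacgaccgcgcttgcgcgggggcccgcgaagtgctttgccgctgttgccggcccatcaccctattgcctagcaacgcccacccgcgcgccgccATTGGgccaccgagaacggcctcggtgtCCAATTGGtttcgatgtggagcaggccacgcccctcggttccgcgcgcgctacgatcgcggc
Fads3, chr19:10041298-10041547, plus strand: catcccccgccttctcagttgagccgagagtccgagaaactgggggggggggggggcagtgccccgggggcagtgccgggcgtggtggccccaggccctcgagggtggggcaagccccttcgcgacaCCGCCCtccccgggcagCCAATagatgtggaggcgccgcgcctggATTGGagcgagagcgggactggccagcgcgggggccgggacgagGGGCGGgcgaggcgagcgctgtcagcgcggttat
Acadm, chr3:153944644-153944893, minus strand: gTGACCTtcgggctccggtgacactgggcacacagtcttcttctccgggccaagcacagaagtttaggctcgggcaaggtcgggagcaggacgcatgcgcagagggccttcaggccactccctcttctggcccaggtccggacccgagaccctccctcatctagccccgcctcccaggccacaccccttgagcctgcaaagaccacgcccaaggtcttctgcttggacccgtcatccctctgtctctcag
Hadh, chr3:131272102-131272351, minus strand: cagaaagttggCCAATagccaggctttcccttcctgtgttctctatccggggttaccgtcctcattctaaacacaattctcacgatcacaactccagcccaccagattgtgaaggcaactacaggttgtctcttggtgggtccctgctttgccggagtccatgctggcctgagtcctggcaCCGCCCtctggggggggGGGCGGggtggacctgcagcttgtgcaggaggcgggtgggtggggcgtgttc
CCAAT stood in the windows of 17 of the 35 genes and in 33.8% of all 32851 promoter windows. GGGCGG stood in 24 of the 35 genes and in 32.7% of all windows. AGGTCA stood in 7 of the 35 genes and in 14% of all windows. CACGTG was found for Mlxipl, Elovl5 and Slc25a1, and in 6.02% of all windows. TCACNCCAC was found for Mlxipl and Ehhadh, and in 1.05% of all windows. The Fasn window held CCAAT at 3 places, between 90 and 55 bases before the start, where 2 of the matches overlap. The Mlxipl windows held the E-box letters 98 to 93 bases before the upstream start and the sterol element letters 136 to 128 bases before the other start. A gene was counted where any of its windows held the letters. The shares are over single windows, of expressed genes and others. Counts and shares are therefore unlike measures, and an excess of any motif was not tested. A match of letters is a description of the window and not a binding site.

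Depth was recovered from the low FPKM values and lay between 15932737 and 24798761 fragments per library. FPKM (fragments per kilobase of gene, relative to the fragments counted in the library) takes gene length into account, so levels below are compared between genes on this scale. Of the 45 genes, 38 were above 1 FPKM in all 24 libraries. Scd1, which puts the first double bond into stearate and palmitate, had the highest mean over the groups with 165 FPKM, followed by Acly with 162 FPKM, Tecr with 122 FPKM, Elovl1 with 107 FPKM, Slc25a1 with 104 FPKM and Fasn with 102 FPKM. Among beta-oxidation genes Hadha led with 92.3 FPKM, then Etfa with 82.9 FPKM and Ech1 with 79.9 FPKM. The transcriptional regulators were low: Mlxipl, which encodes the carbohydrate response factor ChREBP, had a mean of 1.63 FPKM, Ppara 0.873 FPKM, Ppargc1a 0.733 FPKM and Ppargc1b 0.476 FPKM. Elovl3 and the muscle-type Cpt1b stayed below 1 FPKM in all 24 libraries, with at most 0.72 FPKM and 0.583 FPKM, and were not tested in any comparison.

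The groups did not hold the same place for the 3 classes. Of the 25 beta-oxidation genes, 21 had their highest group mean in inverse controls at 72 h and 20 their lowest in inverse co-culture at 72 h. Of the 9 synthesis genes, 7 had their highest mean in inverse controls at 72 h, but 4 had their lowest in inverse controls at 24 h and 1 in inverse co-culture at 72 h. Of the 11 desaturation and elongation genes, 4 were highest and another 4 lowest in inverse co-culture at 72 h. These are group means with no test. The median log2 fold change of all genes tested, inverse co-culture against control at 72 h, was also negative, at -0.16. The share of all genes with the same highest and lowest groups is not given, so nothing particular to the members is read from these counts.

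**Figure D1:**
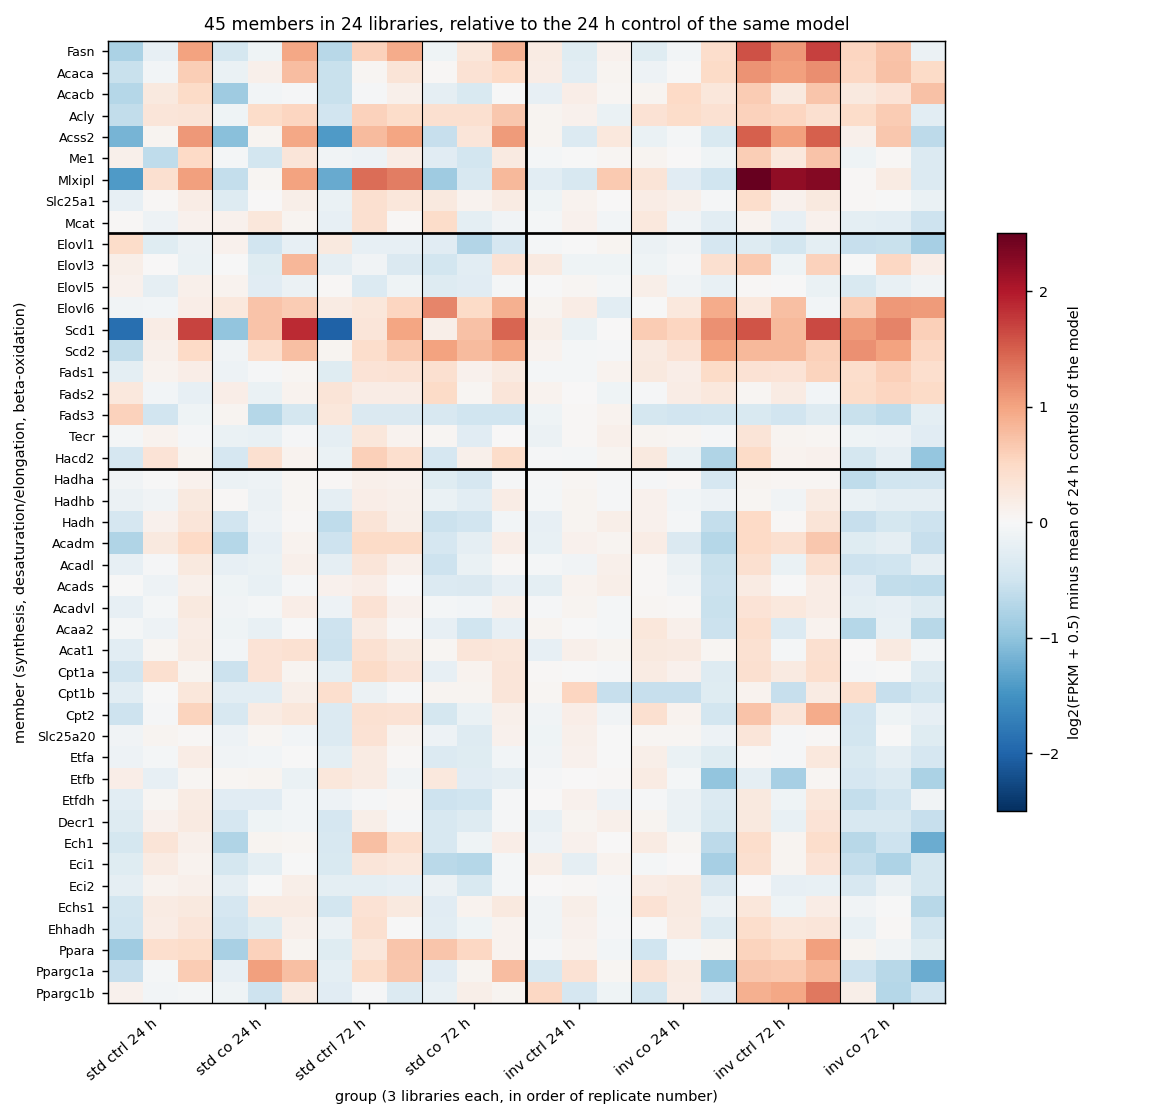
Level of the 45 genes (rows, by class) in the 24 libraries (columns, 3 per group), as log2(FPKM + 0.5) minus the mean of the 24 h controls of the same model; red is higher and blue lower. The 3 inverse controls at 72 h are red for most synthesis genes, the inverse co-cultures at 72 h are pale to blue for most beta-oxidation genes, and in the standard model columns of the same replicate number resemble each other.

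In the standard model the replicate number set much of the level: Scd1 ranged from 29.1 to 133 FPKM in the 4 libraries with number 1, from 137 to 200 FPKM with number 2 and from 238 to 436 FPKM with number 3, co-cultures and controls together. Lrat, which serves vitamin A storage in stellate cells, was listed at 0 in all 3 libraries of 6 of the 8 groups. The summed level of all 10 stellate markers was between 17440 and 32542 FPKM in every library. These markers include Vim, Acta2, Col1a1 and Col3a1, so the sum does not stand in for Lrat. In inverse co-culture at 72 h 8 of the 10 passed the filter, and Lrat and Gfap did not. Fewer cells of a type and less RNA per cell cannot be told apart in such bulk samples.

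The first question was what inverse co-culture did after 72 h. Of the 43 genes tested, 17 fell and 1 rose in co-cultured PSC compared with their controls (limma's moderated test on log2(FPKM + 0.5), adjusted p under 0.05 over 13066 genes). Among all genes tested, 9.57% were called lower and 3.27% higher in this comparison, against 39.5% and 2.33% of the tested members. Synthesis genes fell in 5 of 9 cases (55.6%), beta-oxidation genes in 12 of 24 (50.0%) and desaturation and elongation genes in 0 of 10, where 1 rose. The median log2 fold change was -0.53 for synthesis, -0.58 for beta-oxidation and -0.12 for desaturation and elongation, and -0.16 for all genes. All 9 synthesis and all 24 tested beta-oxidation estimates were negative, whereas 4 of 10 in the other class were positive. With size factors taken from the median gene ratio, the median of all genes moved up by 0.15 to -0.01, and the class medians to -0.37, -0.42 and 0.04. Under that scaling 746 genes were called higher and 686 lower, in place of 427 and 1251, and 10 members remained called, namely 2 synthesis genes (Fasn, Mlxipl), 7 beta-oxidation genes and Fads2.

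Among the synthesis genes, Mlxipl had the largest change. It measured 6.73, 5.13 and 5.47 FPKM in inverse controls at 72 h and 0.744, 0.910 and 0.462 FPKM in co-culture, a log2 fold change of -2.39 ± 0.25 (SE, n = 3 per group, limma adjusted p = 0.00385). The lowest control was several times the highest co-culture, so the groups were far apart. Acss2, which turns acetate into acetyl-CoA, measured 25.6, 18.2 and 25.7 FPKM in controls and 9.53, 14.2 and 5.35 FPKM in co-culture, a log2 fold change of -1.30 ± 0.32 (limma adjusted p = 0.0376). Fasn, the enzyme that assembles palmitate, measured 185, 130 and 202 FPKM in controls and 88.7, 101 and 55.3 FPKM in co-culture, and fell by 1.09 ± 0.25 on the log2 scale (limma adjusted p = 0.0297). For both genes every co-culture lay below every control, and replicate 3 of the co-culture was the lowest library.

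Me1 and Acaca changed less. Me1 measured 123, 95.6 and 131 FPKM in controls and 74.1, 81.7 and 62.4 FPKM in co-culture (log2 fold change -0.67 ± 0.15, limma adjusted p = 0.0296). Acaca, the cytosolic carboxylase, measured 29.5, 27.6 and 30.7 FPKM in controls and 19.2, 22.4 and 18.8 FPKM in co-culture (log2 fold change -0.53 ± 0.11, limma adjusted p = 0.0243). Here too the groups did not overlap. The 4 synthesis genes that did not pass were Slc25a1 (-0.32 ± 0.12), Mcat, the mitochondrial malonyl transferase (-0.33 ± 0.14), Acly (-0.22 ± 0.22) and Acacb, the carboxylase of the mitochondrial membrane (-0.09 ± 0.26), with limma adjusted p between 0.109 and 0.843. For Acly the 95% interval from -0.72 to 0.28 includes both a fall like that of Acaca and a small rise.

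The desaturation and elongation genes did not move as 1 group. Fads2, the delta-6 desaturase of polyunsaturated fatty acids, was the only member to rise: it measured 44.1, 49.5 and 40.7 FPKM in inverse controls at 72 h and 58.8, 62.5 and 59.4 FPKM in co-culture (log2 fold change 0.43 ± 0.10, limma adjusted p = 0.0369). All 3 co-cultures exceeded all 3 controls. Elovl6, which lengthens palmitate to stearate, measured 3.62, 5.28 and 2.77 FPKM in controls and 4.81, 6.84 and 6.71 FPKM in co-culture (log2 fold change 0.62 ± 0.25, limma adjusted p = 0.138), and the groups overlapped. Hacd2, a dehydratase of the elongation cycle, measured 19.5, 14.7 and 15 FPKM in controls and 10.1, 11.7 and 6.83 FPKM in co-culture (log2 fold change -0.77 ± 0.21, limma adjusted p = 0.0523). Hacd2 did not pass although the groups did not overlap. Scd1 measured 220, 130 and 233 FPKM in controls and 154, 175 and 111 FPKM in co-culture (log2 fold change -0.38 ± 0.25, 95% interval -0.96 to 0.20), and its groups overlapped. Scd2 and Fads1 had log2 fold changes of 0.15 ± 0.17 and 0.07 ± 0.10.

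**Figure D2:**
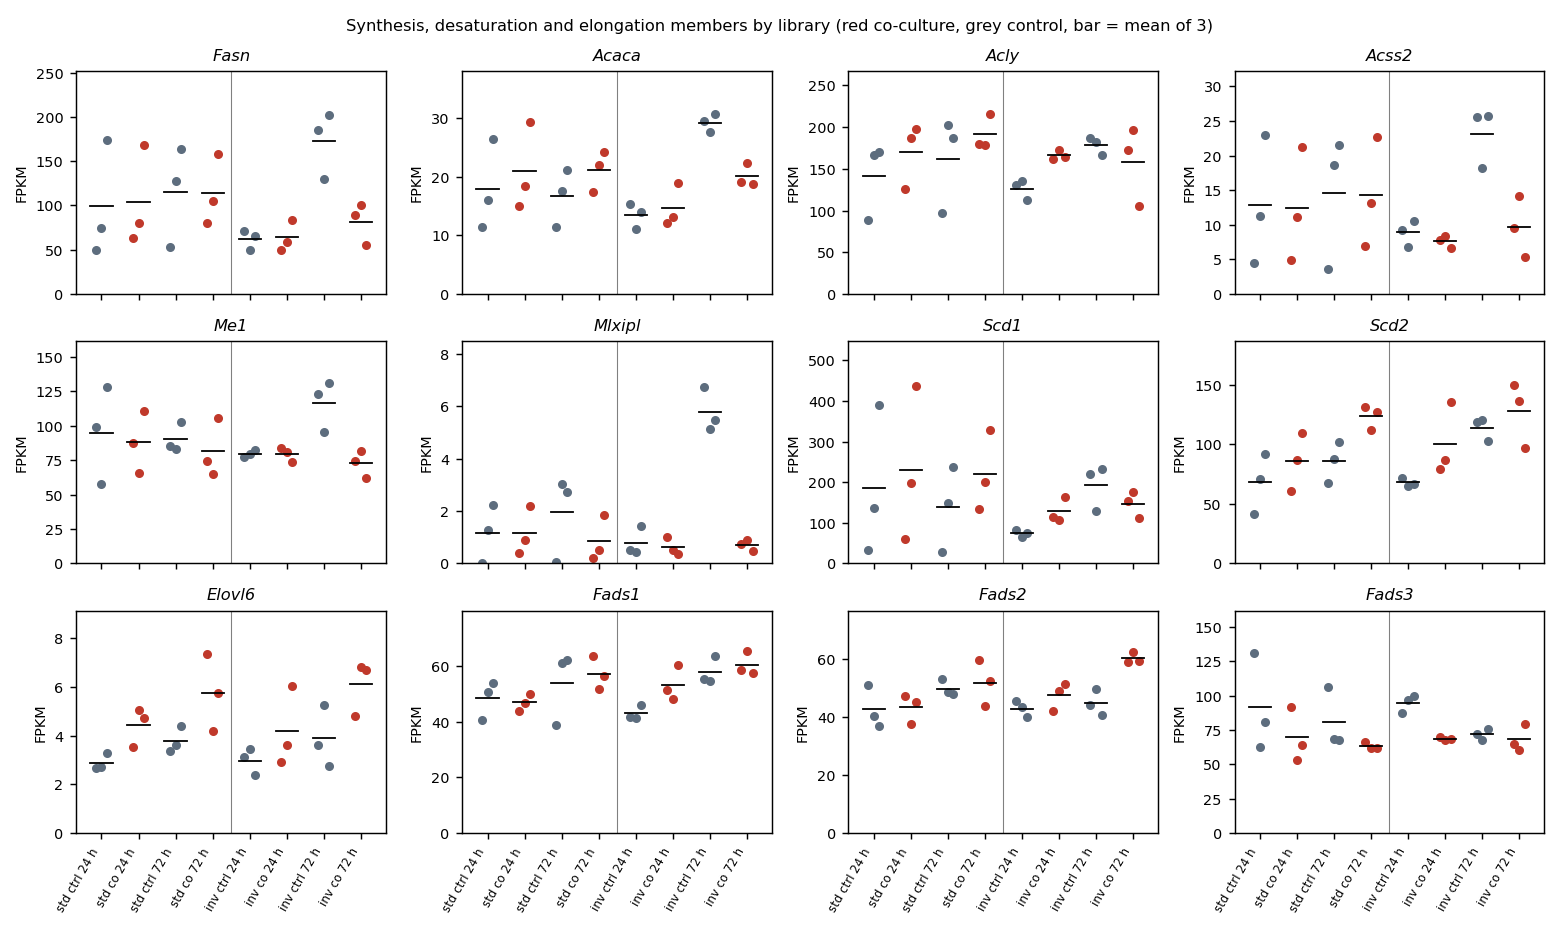
FPKM of 12 synthesis, desaturation and elongation genes by library in the 8 groups; points are libraries (red co-culture, grey control) and bars the mean of 3. In the inverse model Fasn, Acaca, Acss2, Me1 and Mlxipl are highest in the 72 h controls, Scd1 is above its controls at 24 h, Fads2 is above its controls at 72 h and Fads3 below its controls at 24 h.

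In beta-oxidation the called genes included acyltransferases of the entry step, acyl-CoA dehydrogenases, later and auxiliary enzymes and 1 electron acceptor, but no thiolase gene. Of the entry steps, Cpt2, the inner-membrane acyltransferase, measured 55.3, 41.5 and 64.3 FPKM in controls and 24.0, 31.2 and 29.2 FPKM in co-culture (log2 fold change -0.90 ± 0.18, limma adjusted p = 0.0191). Cpt1a, the outer-membrane acyltransferase that malonyl-CoA inhibits, measured 31.9, 28.1 and 32.1 FPKM in controls and 23.4, 24.0 and 19.1 FPKM in co-culture (log2 fold change -0.47 ± 0.13, limma adjusted p = 0.0497), close to the threshold. In both genes the groups did not overlap. The carnitine carrier Slc25a20 had a log2 fold change of -0.36 ± 0.15 (limma adjusted p = 0.157).

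Of the dehydrogenases, 3 of 4 fell. Acadm, which acts on medium chains, measured 84.1, 78.2 and 95.2 FPKM in controls and 48.3, 50.5 and 39.8 FPKM in co-culture (log2 fold change -0.89 ± 0.13, limma adjusted p = 0.00774). Acads, which acts on short chains, measured 47.7, 41.0 and 46.6 FPKM in controls and 33.9, 26.6 and 26.3 FPKM in co-culture (log2 fold change -0.64 ± 0.13, limma adjusted p = 0.0214). Acadvl, which acts on very long chains, measured 67.5, 64.2 and 60.5 FPKM in controls and 45, 45.8 and 42.4 FPKM in co-culture (log2 fold change -0.52 ± 0.09, limma adjusted p = 0.0143). Every co-culture was below every control for these genes, and also for Acadl, the long-chain enzyme, which did not pass (-0.63 ± 0.17, limma adjusted p = 0.0511).

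Later steps of the cycle changed unevenly. Hadha, the large subunit of the trifunctional protein, measured 109, 107 and 107 FPKM in controls and 67.1, 73.4 and 74.6 FPKM in co-culture (log2 fold change -0.59 ± 0.09, limma adjusted p = 0.00875). Hadhb, its partner subunit, measured 41.8, 38.0 and 47.1 FPKM in controls and 36.3, 34.5 and 34.5 FPKM in co-culture (log2 fold change -0.26 ± 0.11, limma adjusted p = 0.146). No co-culture reached a control for either subunit. Only Hadha was called, and the difference between the subunits was not tested. Hadh, the dehydrogenase of shorter chains, measured 29.4, 21.2 and 26.1 FPKM in controls and 13.6, 15 and 14.2 FPKM in co-culture (log2 fold change -0.81 ± 0.14, limma adjusted p = 0.0132). The thiolases Acaa2 (-0.58 ± 0.22) and Acat1 (-0.19 ± 0.15) and the hydratase Echs1 (-0.39 ± 0.20) did not pass.

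Of the auxiliary enzymes for unsaturated acyl chains, 3 of 4 fell. Ech1, a dienoyl-CoA isomerase, measured 120, 92.3 and 120 FPKM in controls and 54.6, 61.7 and 37.0 FPKM in co-culture (log2 fold change -1.13 ± 0.20, limma adjusted p = 0.0140). Eci1, an enoyl-CoA isomerase, measured 22.2, 17.5 and 21.3 FPKM in controls and 10.9, 9.53 and 12.1 FPKM in co-culture (log2 fold change -0.88 ± 0.14, limma adjusted p = 0.0111). Decr1, the dienoyl-CoA reductase, measured 40.2, 29.8 and 43.1 FPKM in controls and 25.7, 25.7 and 22.5 FPKM in co-culture (log2 fold change -0.59 ± 0.15, limma adjusted p = 0.0443). No co-culture of these 3 genes reached a control. Eci2 had a log2 fold change of -0.20 ± 0.12 (limma adjusted p = 0.283).

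Of the electron acceptors, Etfa measured 89.0, 85.3 and 105 FPKM in controls and 67.1, 74.5 and 65.4 FPKM in co-culture (log2 fold change -0.43 ± 0.11, limma adjusted p = 0.0468). Etfdh (-0.53 ± 0.17) and Etfb (-0.18 ± 0.24) did not pass. Ppargc1a, a coactivator of mitochondrial genes, was low everywhere: it measured 1.38, 1.35 and 1.6 FPKM in controls, 0.329 and 0.227 FPKM in the first pair of co-cultures and was listed at 0 in the other, and was called with a log2 fold change of -1.53 ± 0.35 (limma adjusted p = 0.0317), which at this level depends on the pseudocount. Its relative Ppargc1b measured 1.02, 1.09 and 1.54 FPKM in controls and 0.408 and 0.0874 FPKM in co-culture replicates 1 and 3, was listed at 0 in replicate 2, and did not pass (-1.40 ± 0.39, limma adjusted p = 0.0528). Ppara, the fatty acid receptor that drives oxidation genes, did not pass either (-0.80 ± 0.32, limma adjusted p = 0.130), nor did the peroxisomal Ehhadh (-0.55 ± 0.22, limma adjusted p = 0.135).

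**Figure D3:**
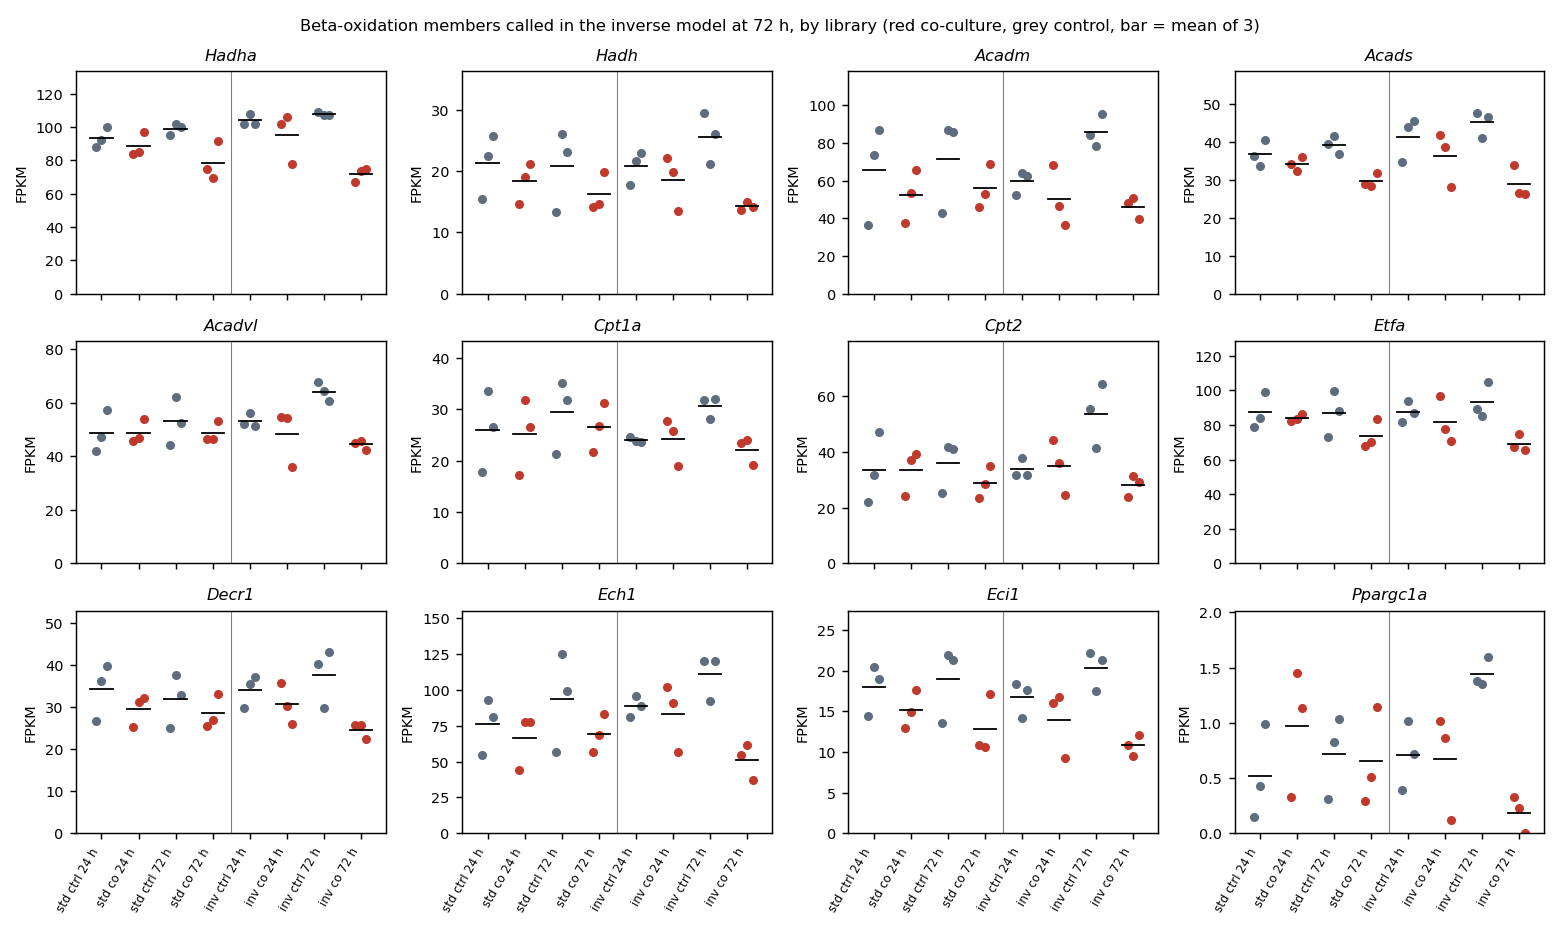
FPKM of the 12 beta-oxidation genes called in the inverse model at 72 h, by library in the 8 groups; points are libraries (red co-culture, grey control) and bars the mean of 3. For these genes the 3 inverse co-cultures at 72 h lie below their 3 controls, while in the standard model at 72 h only those of Hadha and Acads are apart.

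The call rested on few libraries. Leaving out 1 library at a time left between 2 and 17 members called. Without control replicate 1, and likewise without control replicate 3, 2 members were called, Hadha and Acadm. Of all genes tested, 514 of 12679 and 368 of 12698 were called in these fits. With 2 members called, the excess of members over all genes seen in the full fit is not read from them. Without co-culture replicate 1, 6 members were called (Acadm, Acads, Ech1, Eci1, Hadha and Mlxipl) and 503 of all 12858 genes tested. Hadha and Acadm passed in all 6 fits without 1 library, and the other members did not.

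Further genes of the pathways, from lists written with earlier results known, were counted in the same comparison. Of 30 peroxisomal and other oxidation genes tested, 15 fell and 0 rose, with a median log2 fold change of -0.49. The largest were Abcd2, a peroxisomal fatty acyl transporter (-2.45 ± 0.41), the peroxisomal thiolase Acaa1b (-2.02 ± 0.42) and Scp2 (-1.28 ± 0.24), with limma adjusted p between 0.012 and 0.0234. Acaa1b has a near-identical copy, Acaa1a, so its reads may be shared. Of 13 further synthesis genes tested, 3 fell, namely Idh1, which makes NADPH (-1.30 ± 0.31), Acsf3 (-0.88 ± 0.23) and Aacs (-0.51 ± 0.10). Of 22 regulators, 7 fell and 0 rose. They included Srebf1, the sterol-element factor of lipogenesis (-0.79 ± 0.14, limma adjusted p = 0.0128), Nr1h3, which encodes LXR alpha (-1.44 ± 0.18, limma adjusted p = 0.00615), Thrsp (-2.27 ± 0.53), Pparg (-1.55 ± 0.35), Pdk4 (-1.24 ± 0.22) and Rxra (-1.0 ± 0.11).

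Markers of adipocytes moved with these genes. Of 12 adipocyte markers tested, 11 fell in inverse co-culture at 72 h, with a median log2 fold change of -2.70. The summed level of the 14 markers was 2003 to 3034 FPKM in inverse controls at 72 h, 478 to 1061 FPKM in co-culture at 72 h, 808 to 1292 FPKM in controls at 24 h and 628 to 1024 FPKM in co-culture at 24 h. Cidea was listed at 0 in these 4 groups. In the standard model the sum was 312 to 2326 FPKM and lowest in the 4 libraries with number 1. Of 10 macrophage markers tested, 7 fell, and their sum was 145 to 290 FPKM in inverse controls at 72 h and 62.1 to 94.1 FPKM in co-culture, while the standard libraries with number 2 reached 467 to 1584 FPKM. None of the 11 macrophage markers was at 0 throughout a group. The 8 epithelial markers summed to 4.77 to 10.7 FPKM in inverse co-culture at 72 h and 2.5 to 6.71 FPKM in the controls, where Krt8, Krt18, Epcam, Cdh1 and Cldn4 were at 0. Of the 2 epithelial markers tested, Krt19, a keratin of duct cells, rose: it measured 0.176 and 0.116 FPKM in controls and was listed at 0 in the third, and measured 1.83, 1.17 and 3.11 FPKM in co-culture (log2 fold change 2.03 ± 0.40, limma adjusted p = 0.0189). Of 8 stellate markers tested, Pdgfra rose (0.38 ± 0.10, limma adjusted p = 0.0416) and 0 fell. The part of these cells in the changes was not tested.

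**Figure D4:**
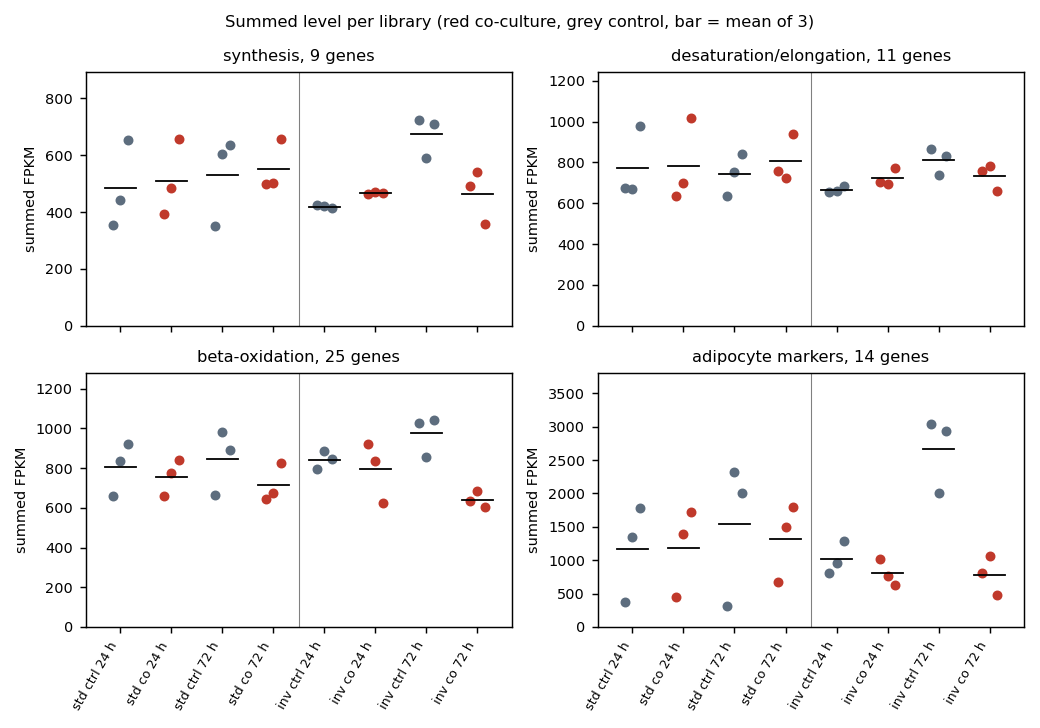
Summed FPKM per library of the 3 classes and of 14 adipocyte markers in the 8 groups; points are libraries (red co-culture, grey control) and bars the mean of 3. In inverse controls at 72 h the synthesis sum is 591 to 725 FPKM and the adipocyte sum 2003 to 3034 FPKM, above the 415 to 423 FPKM and 808 to 1292 FPKM of the 24 h controls.

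The second question was how the controls themselves changed between 24 h and 72 h. In inverse controls 12 members rose and 2 fell, with 43 tested, while among all 13092 genes tested 10.2% rose and 9.05% fell. Synthesis genes rose in 6 of 9 cases (66.7%), against 3 of 10 for desaturation and elongation and 3 of 24 (12.5%) for beta-oxidation. Median log2 changes were 0.53, 0.19 and 0.23, and 0.04 for all genes. Without control replicate 1 or 2 at 24 h, or control replicate 1 at 72 h, 9 members were called, beside 1573, 1243 and 1527 of all genes. When the spread was estimated over all 24 libraries 1 member was called, and the count over all genes is not given. This comparison shares its 72 h controls with the one above, so a high value in those libraries enters both with opposite sign.

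Mlxipl measured 0.512, 0.426 and 1.42 FPKM in inverse controls at 24 h, compared with the 5.13 to 6.73 FPKM at 72 h given above (log2 change 2.36 ± 0.30, limma adjusted p = 0.00252). Fasn measured 70.7, 49.6 and 65.7 FPKM at 24 h and rose by 1.46 ± 0.18 on the log2 scale (limma adjusted p = 0.00245). Acss2 measured 9.22, 6.81 and 10.6 FPKM at 24 h (log2 change 1.34 ± 0.19), and Acaca 15.3, 11.1 and 14 FPKM (log2 change 1.10 ± 0.13, limma adjusted p = 0.00217). All 24 h controls were below all 72 h controls in these 4 genes. Inverse co-cultures at 72 h had means of 0.705 FPKM for Mlxipl, 81.5 FPKM for Fasn, 9.69 FPKM for Acss2 and 20.1 FPKM for Acaca, beside means of 0.785, 62.0, 8.87 and 13.5 FPKM in the 24 h controls, values given side by side without a test.

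Scd1 measured 81.8, 65.8 and 74.1 FPKM in inverse controls at 24 h and rose by 1.35 ± 0.20 on the log2 scale to 72 h (limma adjusted p = 0.00390). Scd2 rose by 0.74 ± 0.10 and Fads1, the delta-5 desaturase, by 0.42 ± 0.10, whereas Elovl1, an elongase of very long chains, fell by 0.35 ± 0.09 and Fads3 by 0.40 ± 0.09. The beta-oxidation genes that rose were Cpt2 (0.64 ± 0.16), Acadm (0.52 ± 0.11) and Cpt1a (0.34 ± 0.10). For Hadha, which fell with co-culture, the control change was 0.05 ± 0.08 and the mean was 104 FPKM at 24 h and 108 FPKM at 72 h. Acads (0.13 ± 0.12), Decr1 (0.13 ± 0.15) and Etfa (0.09 ± 0.11) did not pass either. Their co-culture means at 72 h, 28.9, 24.7 and 69.0 FPKM, lay under their 24 h control means of 41.4, 34.1 and 87.4 FPKM, which was not tested. Regulators rose in 8 of 22 cases, with Srebf1 (1.06 ± 0.12), Thrsp (2.08 ± 0.39) and Nr1h3 (1.16 ± 0.17) given as examples, and 11 of 12 adipocyte markers and 8 of 10 macrophage markers rose as well. Of 8 stellate markers tested in the inverse controls, Acta2, the smooth muscle actin of activated cells (-1.43 ± 0.19), Des (-0.83 ± 0.16) and Vim (-0.57 ± 0.11) fell, and Pdgfra (0.47 ± 0.09) and Col3a1 (0.52 ± 0.15) rose. The part of these changes in those of the members was not tested.

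In standard controls 0 of 41 members were called between 24 h and 72 h (0% of 12963 genes, limma), with 0 members under an unadjusted p of 0.05 and 0 by limma's voom on recovered fragments. Median log2 changes were 0.12, 0.09 and 0.06. The median SE of the members tested was 0.24 on the log2 scale there, 0.13 with the replicate pairs as a block, and 0.13 in the inverse controls without one.

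The third question was what inverse co-culture did at 24 h. Of 39 members tested, Scd1 rose and Fads3 fell, and among all 12827 genes tested 1.08% rose and 1.39% fell. Scd1 measured 115, 107 and 163 FPKM in co-culture and the 65.8 to 81.8 FPKM given above in controls (log2 fold change 0.77 ± 0.16, limma adjusted p = 0.0472). Fads3, a desaturase known to act on sphingoid bases, measured 69.9, 68.1 and 68.6 FPKM in co-culture and 87.6, 96.8 and 100 FPKM in controls (log2 fold change -0.46 ± 0.10, limma adjusted p = 0.0459). Both pairs of groups were apart, yet both calls lay just under the threshold and were lost under 5 of 8 other settings and in 5 of 6 fits without 1 library. Scd2 (0.52 ± 0.18, limma adjusted p = 0.216), Fads1 (0.30 ± 0.12, limma adjusted p = 0.277) and Acly (0.40 ± 0.10, limma adjusted p = 0.0899) had co-cultures above all controls without passing. The share of all genes with such a separation is not given, so nothing particular to these members is read from it.

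No synthesis gene of 8 tested and no beta-oxidation gene of 21 tested was called at 24 h, and class medians were 0.06 and -0.13, beside -0.06 for all genes. Co-culture replicate 3 had the lowest summed beta-oxidation level of the group with 625 FPKM, beside 921 and 834 FPKM, and the controls had 794 to 885 FPKM. Its adipocyte and macrophage sums, 628 and 28.2 FPKM, were also the lowest of the group. Co-culture replicate 2 stood apart by epithelial markers, with a sum of 45.7 FPKM against 3.38 and 8.29 FPKM in the other libraries and at most 2.03 FPKM in controls. Without co-culture replicate 2 no member was called, and Scd1 then had a log2 fold change of 0.89 ± 0.18 (limma adjusted p = 0.0772) and Fads3 one of -0.45 ± 0.12 (limma adjusted p = 0.162).

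The co-culture effect at 72 h minus that at 24 h was tested directly in the inverse model. It was called for 0 of 43 members and 0% of 13722 genes (limma), and voom called 0 members. Under an unadjusted p of 0.05 were 18 members, for which the count over all genes is not given. With the replicate number as a block, 16 members and 1515 of all genes were under it, and 0 were called. Without the block the lowest limma adjusted p was 0.129, for Mlxipl (difference of log2 changes -2.24 ± 0.47). All 9 synthesis differences were negative, among them Fasn (-1.12 ± 0.35), Acss2 (-1.10 ± 0.40) and Me1 (-0.67 ± 0.18). The median difference of all genes is not given, so nothing particular is read from the shared sign. Scd1 had -1.16 ± 0.33, with a positive effect at 24 h and a negative estimate at 72 h. Fads3 had a positive difference, 0.37 ± 0.15. None of these passed (limma adjusted p 0.253 to 0.410), so the data do not show that any member responded differently at the 2 times.

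The fourth question was whether standard co-culture moved the same genes. There 0 of 41 members were called at 24 h and 0 of 41 at 72 h, with 0% of 12859 and 0% of 12863 genes (limma), and 0 by voom. Under an unadjusted p of 0.05 (limma) were 1 and 3 members, beside 371 and 800 of all genes. Because replicate numbers paired these libraries, a fit with the number as a block was also made. It called 157 of all genes at 24 h (1.22%) and 1 at 72 h, but again 0 members. With the block, 10 and 7 members were under an unadjusted p of 0.05, beside 1932 and 1388 of all genes. Nothing particular to the members is read from these counts. The lowest blocked adjusted p over the members was 0.108 at 24 h and 0.391 at 72 h.

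Within the standard pairs, 10 of the 45 genes had 1 direction in all 6 pairs of libraries. Scd1, Scd2, Elovl6 and Acaca were higher in co-culture, and Fads3, Elovl1, Hadha, Acads, Etfdh and Eci1 were lower. Of the 41 genes that passed the filter at both times, 9.76% were higher and 14.6% lower in all 6 pairs, beside 5.29% and 9.97% of all 12522 such genes. These shares rest on 4 and 6 genes and were not tested, and nothing particular to the members is read from them. The 10 genes were singled out after their values were seen, and none passed a test. The 6 pairs are 3 replicate numbers at 2 times. Standard controls of equal number deviated together over time (correlations 0.766, 0.686 and 0.479), so the 6 pairs are not taken as independent. Scd1 measured 32.2, 137 and 389 FPKM in controls at 24 h and 60.7, 197 and 436 FPKM in the co-cultures of the same numbers. At 72 h it measured 29.1, 149 and 238 FPKM in controls and 133, 200 and 329 FPKM in co-culture. Each co-culture exceeded the control of its number, while the groups overlapped widely. The blocked log2 fold change was 0.53 ± 0.13 at 24 h (limma adjusted p = 0.136) and 1.02 ± 0.37 at 72 h (limma adjusted p = 0.433). Without the block the SE was 1.06 at 24 h and 0.78 at 72 h.

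Scd2 measured 41.8, 70.7 and 91.5 FPKM in controls at 24 h and 60.6, 87.0 and 109 FPKM in co-culture, and 67.9, 87.5 and 102 FPKM in controls at 72 h and 131, 112 and 127 FPKM in co-culture. Its blocked log2 fold changes were 0.36 ± 0.08 (limma adjusted p = 0.117) and 0.54 ± 0.16 (limma adjusted p = 0.393). Fads3 was lower in co-culture in each of the 6 pairs, with blocked log2 fold changes of -0.36 ± 0.08 (limma adjusted p = 0.108) and -0.31 ± 0.15 (limma adjusted p = 0.516). Elovl6 was higher in each of the 6 pairs, with 0.54 ± 0.18 (limma adjusted p = 0.221) and 0.52 ± 0.23 (limma adjusted p = 0.486).

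The 4 beta-oxidation genes of that set had small estimates at 24 h and larger ones at 72 h. Blocked log2 fold changes at 72 h were -0.55 ± 0.19 for Eci1, -0.40 ± 0.12 for Acads, -0.34 ± 0.13 for Hadha and -0.30 ± 0.14 for Etfdh, with limma adjusted p between 0.398 and 0.506. Acads measured 39.5, 41.5 and 36.8 FPKM in standard controls at 72 h and 29.0, 28.5 and 31.7 FPKM in co-culture. Hadha measured 95.3, 102 and 100 FPKM in those controls and 75.1, 69.2 and 91.8 FPKM in co-culture. For both genes the groups did not overlap, although neither gene passed.

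For the genes that fell in the inverse model at 72 h, the standard estimates at 72 h were 0.08 for Fasn (95% interval -1.01 to 1.18), 0.15 for Acss2 (-1.58 to 1.88), -0.63 for Mlxipl (-2.61 to 1.35), -0.37 for Ech1 (-1.11 to 0.38) and -0.34 for Hadha (-0.67 to -0.01). With the pairs as a block the estimates were the same and the intervals narrower for Fasn (-0.40 to 0.57), Acss2 (-0.54 to 0.83), Ech1 (-0.84 to 0.11) and Mlxipl (-1.82 to 0.56). All 4 include 0, and none reaches the inverse estimate of its gene, which has an error of its own. The blocked interval of Hadha, -0.67 to -0.01, excludes 0 and includes its inverse estimate of -0.59. Those of Eci1 (-1.03 to -0.07) and Acads (-0.71 to -0.09) also exclude 0 and include theirs of -0.88 and -0.64. The test of the difference between the models is given separately. Of the 22 beta-oxidation genes tested at 72 h, 19 had a negative estimate, with a median of -0.21 beside -0.09 for all genes.

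**Figure D5:**
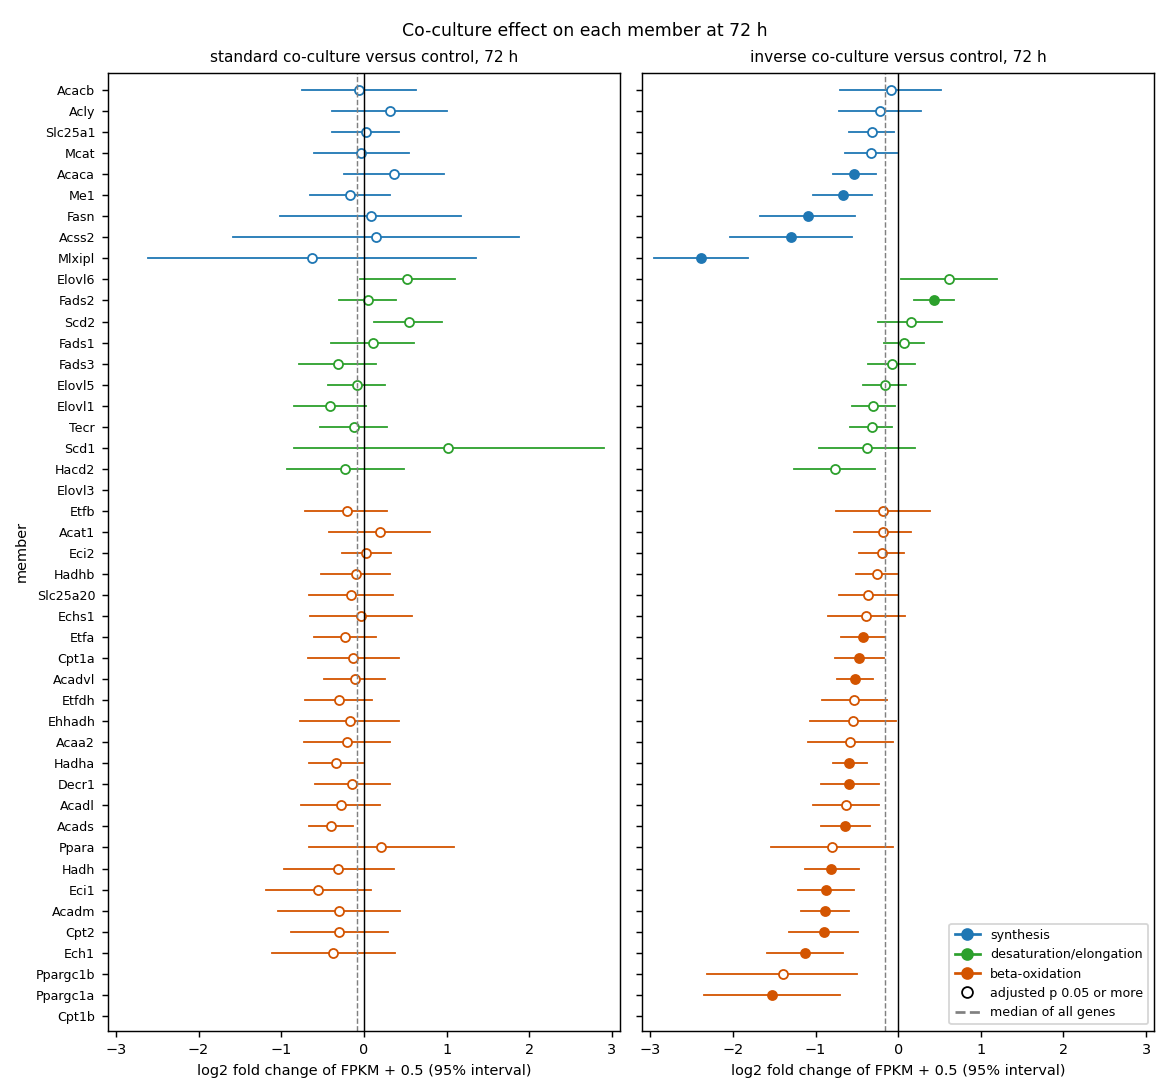
Log2 fold change at 72 h of each tested gene with its 95% interval in the standard model (left) and the inverse model (right); filled points passed an adjusted p of 0.05 and the dashed line is the median of all genes. Filled points appear in the inverse model alone, 5 for synthesis, 1 for desaturation and elongation and 12 for beta-oxidation, and most intervals of the standard model, fitted without the replicate block, are wider.

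The difference between the models was tested as the inverse minus the standard co-culture effect over all 24 libraries. At 24 h 0 of 43 members were called, with 0 under an unadjusted p of 0.05, and at 72 h 0 of 43, with 3 under it; among all 14452 genes 0% were called at either time (limma), and voom called 0 members. The 3, beside 501 of all genes under it, were Ppargc1b (-1.63 ± 0.42), Ppargc1a (-1.43 ± 0.59) and Acaca (-0.89 ± 0.39), each with limma adjusted p = 0.997. With the block 16 of all genes were called at 72 h, no member among them. In that fit 17 members and 1163 of all 14452 genes were under an unadjusted p of 0.05. The difference between 72 h and 24 h effects in the standard model was called for 0 of 42 members and 0% of 13694 genes (limma), with 0 members under an unadjusted p of 0.05 and 0 by voom. An inverse response of these genes that is larger than the standard one was therefore not shown by a test of the difference.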

How the data were processed

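RNA of PSC was sequenced in 24 libraries, 3 biological replicates in each of 8 groups. Per the submitters' processing notes the reads passed through CASAVA, HISAT2 2.0.5, featureCounts 1.5.0-p3 and DESeq2 1.20.0 with the GRCm38 (mm10) build, and the annotation release was not given in the sources used here. The authors deposited FPKM per gene, already scaled to depth and gene length. Depth per library (median 18860269 fragments) was recovered from the steps between low FPKM values. Within 0.05 of a fragment, 99.7% of the 28892 genes above 0 gave whole fragments, 12208 of them at the GENCODE exon length and 16607 at another length fitted to the values, so tests on these fragments were an alternative only.

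Differences were tested with limma 3.58.1 (R 4.3.3, two-sided, with intensity trend) on log2(FPKM + 0.5), for genes above 1 FPKM in at least 3 of the libraries compared, with Benjamini-Hochberg adjustment over all genes tested and a threshold of 0.05. A fold change on this scale understates that of low genes. Statements that groups did not overlap describe the 3 libraries of each group. The share of all genes with such groups is not given. The 10 comparisons were each co-culture with its own control, the controls over time, and differences of effects between models and between times. Deviations of equally numbered standard libraries from their group means correlated across genes at 0.823, 0.759 and 0.550 (24 h) and 0.602, 0.480 and 0.478 (72 h), so these numbers were taken as pairs. The members, the further gene lists and the marker lists were chosen with earlier results of these data known. Values in every library are given for members called with co-culture and for the 3 of each class with the largest change in inverse co-culture at 72 h, and from each further list up to 6 genes called there, in order of change. Some items are not reported here. The script was tested on simulated data. Alternatives were pseudocounts of 1 and 0.1, no filter, median-ratio scaling, no trend, a replicate block, voom on recovered fragments, all 24 libraries in 1 fit (for the difference between models, the 12 libraries of the time point) and leaving out each library.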

Additional observations from a re-analysis of the deposited data

How the results depend on the processing

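In the standard comparisons and in all differences of effects 0 members were called under every setting tried and without any 1 library. For inverse co-culture at 72 h, 18 members were called, and 19 with a pseudocount of 1, 16 with 0.1, 11 with no filter, 10 with median-ratio scaling, 13 with no intensity trend, 9 with the replicate block, 21 with voom and 9 with all 24 libraries in 1 fit. Leaving out 1 library gave 2 to 17 members, beside 368 to 1637 of all genes. Of all genes, 1678 were called in the main fit and 902 with the block. With median-ratio scaling 746 were called higher and 686 lower. Counts over all genes under the other settings are not given, so whether members lost calls faster than other genes cannot be read from the list. Ech1, Eci1, Hadh, Hadha and Mlxipl were called in all 8 other settings that kept every library. At 24 h the 2 calls became 0 with no filter, median-ratio scaling, no intensity trend, the replicate block or all 24 libraries. Without 1 library they became 0 to 2, with 2 only where co-culture replicate 3 was left out. Those fits called 67 to 412 of all genes, and the main fit 317. For inverse controls over time the 14 calls became 1 with all 24 libraries, and 9 to 15 without 1 library. Of all genes, 2516 were called in the main fit there and 1243 to 2369 without 1 library. For all of these changes the cause was not tested.

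In inverse co-culture equally numbered libraries did not deviate together (correlations between -0.171 and 0.0388 at 24 h, and between -0.126 and 0.103 at 72 h), so their numbers were not taken as pairs. The replicate block called 88 of all genes there at 24 h and 902 at 72 h, in place of 317 and 1678. The unblocked log2 fold change of Scd1 in standard co-culture at 24 h was 0.53 and changed sign without 1 of its libraries, to -0.41 without control replicate 1 and to -0.13 without co-culture replicate 3, with a highest value of 1.38 without control replicate 3. With 3 libraries per group and 15932737 to 24798761 fragments, genes below 1 FPKM were seen through few fragments.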
